A study of Mus musculus with 2 samples.

Results

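The chemokine receptor Ccr2 and the ligands Ccl2, Ccl7, Ccl8 and Ccl12 were followed across the cell types of healing mouse skin. They were taken by gene symbol from the count matrices of both libraries, which gave 5 of 27998 genes, and each symbol matched 1 row. The study treated large full-thickness back wounds, 1.8 cm across, of wild-type male mice aged 6 to 8 weeks and asked how activation of Toll-like receptor 9 (TLR9), a sensor of DNA, bears on hair follicle regeneration. TLR9agonist_LW wounds received 4 μg of the CpG oligodeoxynucleotide ODN2395 on days 0, 3 and 6, and WT_LW wounds received PBS according to the sample labels. Punches 5 mm across were taken 2 days after scab detachment, and cells pooled from several mice gave 1 single-cell library per group. No test between the groups is therefore possible, and the treatment cannot be told apart from differences among mice or in how the libraries were made. All intervals are 95% intervals and cover counting error only.

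Chemokines are small secreted proteins that direct the migration of leukocytes. CCR2 is the receptor through which monocytes leave the bone marrow and enter inflamed tissue, and it is also carried by memory and γδ T cells. CCL2 and CCL7 are its best known ligands, CCL12 is a mouse ligand close to CCL2, and mouse CCL8 is known mainly as a ligand of CCR8, although it belongs to the same family of monocyte chemoattractant proteins. In skin, fibroblasts, vascular cells, mast cells and macrophages are all known sources of such ligands.

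The ligand genes lay on the plus strand of chromosome 11 of GRCm38, within 81.2 kb. Ccl2 (ENSMUSG00000035385) spanned chr11:82035571-82037453, Ccl7 (ENSMUSG00000035373) chr11:82045712-82047525, Ccl12 (ENSMUSG00000035352) chr11:82101845-82103400 and Ccl8 (ENSMUSG00000009185) chr11:82115185-82116799. Each ligand transcript had 3 exons. Ccr2 (ENSMUSG00000049103) lay apart from them, at chr9:124101950-124113557. The ligands are CC chemokines, named for a pair of adjacent cysteines near the start of the mature protein. The stretch of coding sequence around that pair is shown to let the ligands be compared, with the codons of the adjacent cysteines in capitals (codons 34 and 35 in Ccl2, 33 and 34 in Ccl7 and Ccl12, 32 and 33 in Ccl8).
Ccl2: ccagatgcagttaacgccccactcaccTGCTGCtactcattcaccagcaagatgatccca
Ccl7: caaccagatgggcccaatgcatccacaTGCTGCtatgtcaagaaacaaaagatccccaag
Ccl12: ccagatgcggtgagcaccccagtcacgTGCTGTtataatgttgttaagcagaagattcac
Ccl8: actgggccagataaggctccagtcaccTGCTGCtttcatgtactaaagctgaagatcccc

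Over the aligned codons of the whole coding sequence, Ccl8 and Ccl12 had the highest identity, 70.1% of bases, followed by Ccl2 and Ccl7 with 69.1%. The other pairs ranged from 64.9% to 67.4%. Both of these closest pairs were also the pairs with the most similar levels over cell types. Pearson correlations of log2 levels were taken across 40 profiles, 20 cell types in each of the libraries. They were 0.87 for Ccl2 with Ccl7 and 0.87 for Ccl8 with Ccl12. The other pairs of ligands ranged from 0.40 to 0.57. These profiles share libraries, so the correlations are descriptions only. Ccl8 and Ccl12, which were highest in the same cells, had promoter entries in RefSeq (GRCm38.p6). The 80 bases before each annotated start are shown for their shared TATA motif, the letters TATAAAA, in capitals.
Ccl12, chr11:82101765-82101844, plus strand: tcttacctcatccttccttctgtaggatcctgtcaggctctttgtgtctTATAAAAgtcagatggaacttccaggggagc
Ccl8, chr11:82115105-82115184, plus strand: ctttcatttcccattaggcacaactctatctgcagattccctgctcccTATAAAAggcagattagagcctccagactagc

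The motif began 31 bases before the start of Ccl12 and 32 bases before that of Ccl8. On either strand it occurred in 5.48% of 32851 promoter windows of 300 bases. The letters TGANTCA, a form of the AP-1 motif searched on both strands, were in neither window and occurred in 7.81% of all windows. The letters GAGGAA, the core of the motif of the myeloid factor PU.1, were in both windows of 300 bases and occurred in 28.3% of all windows. They began at position -130 from the start of Ccl12 and -240 from that of Ccl8, outside the 80 bases shown. Further motifs searched on both strands were those of NF-κB (GGG and CC with any 5 bases between), C/EBP (TTGC and AA with any 2 bases between) and interferon response factors (GAAA and GAAA with any 2 bases between). They were in neither window and occurred in 50.8%, 10.8% and 3.44% of all windows. The Ccr2 window, also in RefSeq, held none of the 6 motifs. Ccl2 and Ccl7 were not matched.

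After filtering, 10355 cells of WT_LW with 85267651 unique molecular identifiers (UMIs, each 1 captured transcript) and 11793 cells of TLR9agonist_LW with 110970846 UMIs were used. Their medians were 5521 and 6083 UMIs per cell, and 32 barcodes occurred in both. Cells were named by a gate on marker genes that held none of the 5 genes, and 13.7% of WT_LW cells and 11.6% of TLR9agonist_LW cells stayed without a type. The gate gave 558 and 437 pericytes, 1037 and 2405 fibroblasts, 163 and 411 mast cells, 594 and 375 blood endothelial cells, 1869 and 1430 macrophages and dendritic cells, and 3161 and 3220 T cells in WT_LW and TLR9agonist_LW. All 8 markers of each of these types were raised in the gated cells. Of the 8 markers of C1q macrophages, 7 were. The same markers had selected the cells, so these counts are no independent check of the types. Levels are given in CPM, the UMIs of a gene per 1000000 UMIs of the cell type, and come from 3′ tags that do not scale with gene length. In this scale the median gene with at least 200 UMIs was lower in TLR9agonist_LW by a log2 ratio of -0.39 over all cells.

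Free RNA adds to every level. T cells do not usually make these ligands, so their levels served as a reference for it. Ccl2 stood at 44.1 CPM in WT_LW T cells and at 193 in TLR9agonist_LW T cells, Ccl7 at 23.0 and 70.2, Ccl8 at 18.5 and 55.5, and Ccl12 at 1.44 and 5.0. The reference was thus itself higher in TLR9agonist_LW, by a log2 ratio of 2.13 for Ccl2. It is no lower bound, since Ccl8 in Cd209a dendritic cells was 0.454 and 0.480 times as high and T cells were shallower than most types. A level close to or below it in another cell type is therefore given without reading it as expression. How much of the T cell level is free RNA was not tested. The mix of ligands in WT_LW T cell subsets was alike, with Ccl2 making up 47.9% to 52.5% of ligand UMIs in the 4 named subsets. In TLR9agonist_LW its part ran from 57.8% in γδT17-like cells to 63.3% in CD8 T-like cells.

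All 4 ligands were higher in TLR9agonist_LW over all cells, while Ccr2 was nearly level. Ccl2 stood at 409 CPM (405 to 414) in WT_LW and 1547 (1540 to 1554) in TLR9agonist_LW, a log2 ratio of 1.92 (1.90 to 1.94). Ccl7 stood at 206 and 511, a log2 ratio of 1.31 (1.28 to 1.33). Ccl2 and Ccl7 were the most abundant of the set in both libraries. Ccl8 stood at 134 and 376, a log2 ratio of 1.49 (1.46 to 1.52). Ccl12, the least abundant, stood at 18.9 and 41.4, a log2 ratio of 1.13 (1.04 to 1.21). Each ligand was thus more than 2-fold higher, as were 3.79% of the 15439 genes with at least 50 UMIs. Ccr2 stood at 137 and 128, a log2 ratio of -0.10 (-0.13 to -0.06), which turned to 0.29 relative to the median gene and to 0.22 when each cell had equal weight.

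**Figure D1:**
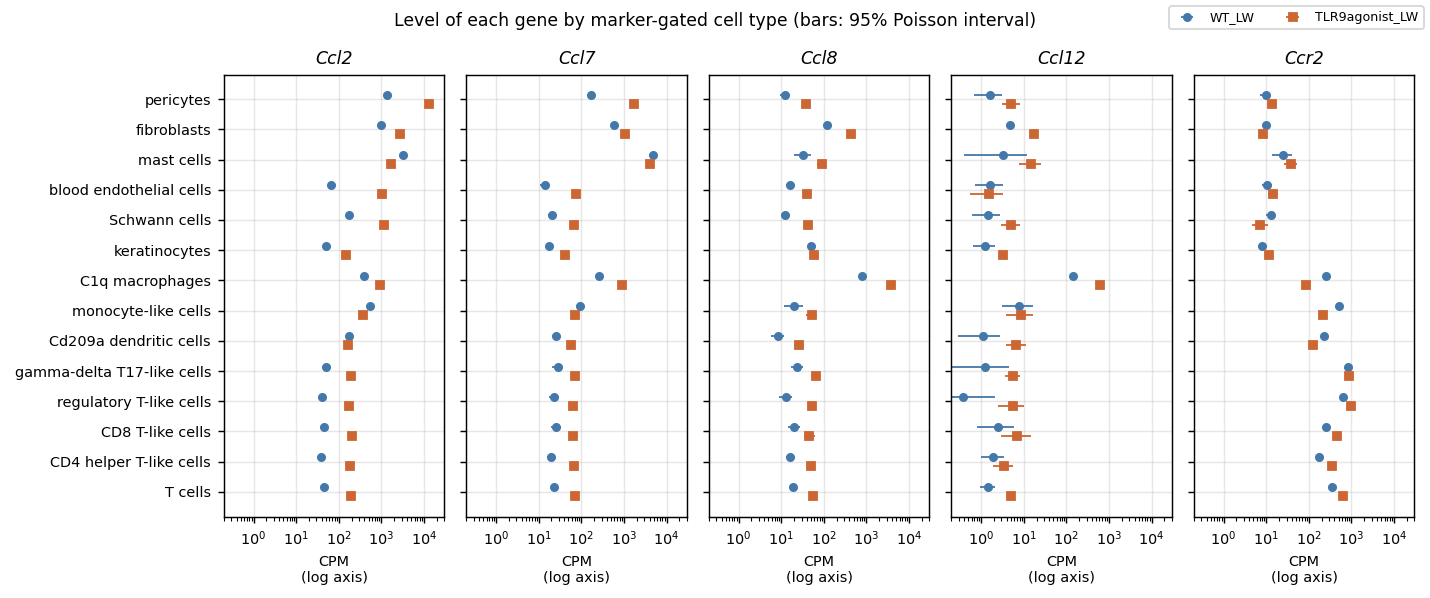
Level in CPM (log axis) of each gene in 14 marker-gated cell types, neutrophils and NK-like cells not among them, with circles for WT_LW, squares for TLR9agonist_LW and bars for the 95% Poisson interval, which the axis cuts off at its lower end. Ccl2 is highest in TLR9agonist_LW pericytes (13020) and Ccl7 in mast cells of both libraries, Ccl8 and Ccl12 are highest in C1q macrophages among these types, and Ccr2 is highest in γδT17-like cells in WT_LW (824) and in regulatory T-like cells in TLR9agonist_LW (991).

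Pericytes, the mural cells that wrap small vessels, were gated together with vascular smooth muscle cells and held the highest Ccl2 level of any gated type in TLR9agonist_LW. Their Ccl2 level was 1372 CPM (1339 to 1404) in WT_LW and 13020 (12900 to 13130) in TLR9agonist_LW, a 9.49-fold difference and a log2 ratio of 3.25 (3.21 to 3.28). Ccl7 followed at a lower level, with 167 and 1769 CPM and a log2 ratio of 3.41 (3.30 to 3.51). Of 9560 genes with at least 50 UMIs in pericytes, 3.51% were at least 2-fold higher and 12.5% at least 2-fold lower, and 42 had a higher ratio than Ccl2. Ccl8 (12.3 and 38.0) and Ccl12 (1.61 and 5.13) stayed at about the T cell level in both libraries. When cells were thinned to 1500 UMIs, 34.2% (30.3 to 38.4) of WT_LW pericytes and 77.8% (73.6 to 81.6) of TLR9agonist_LW pericytes had a Ccl2 UMI, against 7.49% and 26.3% of T cells. Without thinning these shares were 57.7% and 93.1% of pericytes, with median depths of 8246 and 8023 UMIs, and 20.6% and 62.2% of T cells, with median depths of 4343 and 4651 UMIs.

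The pericyte level was uneven among cells. In TLR9agonist_LW, a cluster of 187 pericytes led by Cxcl5, Lif and Csf3 stood at 24350 CPM of Ccl2 and held 86.3% of the pericytes' Ccl2 UMIs and 84.8% of their Ccl7 UMIs. The other clusters stood between 1052 and 6795. In WT_LW, a cluster of 157 pericytes stood at 3355 and held 75.2% of the Ccl2 UMIs, and the others stood between 110 and 610. That WT_LW cluster was led by Ccl21a, Hp, Il6 and Mmrn1, of which Ccl21a and Mmrn1 mark lymphatic endothelium. The part of lymphatic endothelial RNA in it was not tested. Pericytes with a Ccl2 UMI had a Ccl7 UMI more often than other pericytes, in 55.6% against 9.28% of thinned TLR9agonist_LW cells.

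Fibroblasts, the matrix-producing cells of the dermis, held the largest share of Ccl2 and Ccl7 of any gated type. Their Ccl2 level was 965 CPM (950 to 980) in WT_LW and 2719 (2702 to 2737) in TLR9agonist_LW, a log2 ratio of 1.50 (1.47 to 1.52). Ccl7 stood at 574 and 1072, a log2 ratio of 0.90 (0.87 to 0.93). Unlike pericytes, fibroblasts also held Ccl8 above the T cell level, with 117 and 437 CPM and a log2 ratio of 1.90 (1.83 to 1.97). Ccl12 stood at 4.87 and 17.02, which was 3.38 and 3.40 times the T cell level. In fibroblasts 3.89% of 12562 genes were at least 2-fold higher.

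Ccl2 and Ccl8 were highest in different fibroblasts. In TLR9agonist_LW, a cluster of 608 cells led by Ifi205, Csf2 and Il6 stood at 5493 CPM of Ccl2 and held 68.6% of the fibroblasts' Ccl2 UMIs but 9.84% of their Ccl8 UMIs. Clusters of 238 and 614 cells stood at 1029 and 946 CPM of Ccl8, and at only 817 and 744 of Ccl2. In WT_LW, 53.5% of the fibroblasts' Ccl8 UMIs lay in a cluster of 265 cells led by Cyp26b1 and Wif1. The gate also took in shallow cells led by immune or keratin genes. They numbered 199 in WT_LW and 69 in TLR9agonist_LW, at medians of 1544 and 933 UMIs. They held 2.65% and 0.973% of the fibroblasts' Ccl2 UMIs. A further WT_LW cluster of 18 cells was led by Elovl4, Ly6g6c and Fa2h, at a median of 2450.5 UMIs. It held 0.0324% of the fibroblasts' Ccl2 UMIs.

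**Figure D2:**
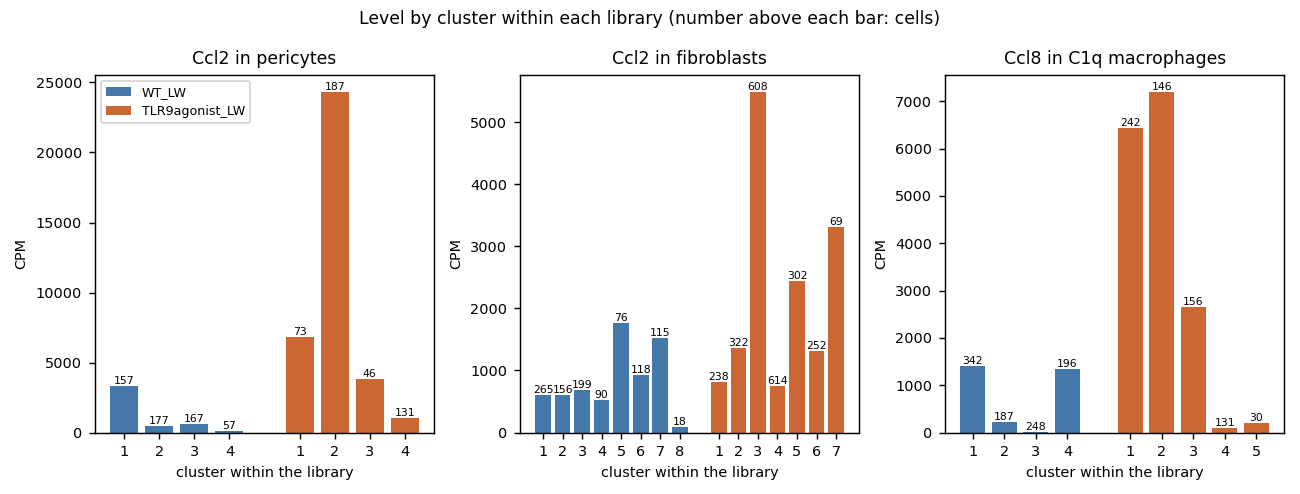
Levels in CPM of Ccl2 in pericytes and fibroblasts and of Ccl8 in C1q macrophages, by Leiden cluster within each library, with the number of cells above each bar. A single TLR9agonist_LW pericyte cluster reaches 24350 CPM of Ccl2, and the C1q macrophage clusters with the highest Ccl8 level reach 6433 and 7203.

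Ccl2 was also above the T cell level in the other vascular and nerve-associated cells. Blood endothelial cells, the lining of blood vessels, had 65.0 CPM of Ccl2 (58.0 to 72.7) in WT_LW, only 1.48 times the T cell level, and 1047 (1016 to 1079) in TLR9agonist_LW, 5.43 times that level. The log2 ratio was 4.01 (3.84 to 4.18), or 5.35 with the T cell level subtracted, and 3.96% of 9491 genes were at least 2-fold higher. These UMIs were concentrated, with 83.3% of them in the 10% of TLR9agonist_LW cells that held most. Ccl7 stood at 13.9 and 75.5 in these cells, near the T cell level in both libraries. Schwann cells, the glia of skin nerves, had 172 and 1140 CPM of Ccl2, a log2 ratio of 2.73 (2.63 to 2.83), and Ccl7 close to the T cell level. In Schwann cells 2.46% of 10055 genes were at least 2-fold higher. Lymphatic endothelial cells, 41 and 50 in number, had 384 and 1058 CPM of Ccl2, a log2 ratio of 1.46, or 2.56 with equal weight per cell. Their Ccl7 level of 84.2 and 215 CPM was 3.66 and 3.06 times the T cell level. In keratinocytes Ccl2, Ccl7 and Ccl12 were between 0.580 and 1.12 times the T cell level, and Ccl8 stood at 49.4 and 57.8, which was 2.68 and 1.04 times the T cell level. That Ccl8 log2 ratio was 0.23, or 1.54 with equal weight per cell, and -3.75 with the T cell level subtracted.

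Mast cells, granule-bearing cells of the dermis, had the highest Ccl7 level of any gated type in both libraries, and theirs was not higher in TLR9agonist_LW. Ccl7 stood at 4807 CPM (4636 to 4983) in WT_LW and 4189 (4055 to 4326) in TLR9agonist_LW, a log2 ratio of -0.20 (-0.27 to -0.13). Ccl2 stood at 3246 and 1663, a log2 ratio of -0.96 (-1.06 to -0.87). The WT_LW level was the highest Ccl2 level of any gated type in that library, and the direction is opposite to that in pericytes and fibroblasts. In the main setting neither gene passed the 2-fold limit, which 5.67% of genes in mast cells passed downwards and 12.4% upwards. Relative to the median gene of mast cells, the log2 ratios were -0.38 for Ccl7 and -1.15 for Ccl2. The call for Ccl2 thus turned with the settings. Its ratio passed the limit with a stricter cell filter (-1.19), by Leiden clusters (-1.05) and with the T cell level subtracted (-1.12). Without the 1% of cells with most Ccl2 UMIs, the Ccl2 ratio lay at the limit. It stayed within the limit with doublets kept (-0.79), equal weight per cell (-0.82) and 1 marker more (-0.96). Mast cells were shallow, with medians of 2504 and 1698 UMIs, and rested on 163 and 411 cells. In thinned cells, 88.3% (81.2 to 93.5) of WT_LW and 72.8% (66.8 to 78.3) of TLR9agonist_LW mast cells had a Ccl2 UMI, from 120 and 243 cells deep enough. For Ccl7 these shares were 71.7% (62.7 to 79.5) and 82.7% (77.4 to 87.3), the opposite direction to its level in CPM, so no order is read from them. Ccl8 (32.3 and 89.6) was 1.75 and 1.61 times the T cell level, Ccl12 rested on 2 and 13 UMIs, and Ccr2 stood at 24.2 and 37.4. Ccl7 made up 59.4% of the ligand UMIs of mast cells in WT_LW and 70.3% in TLR9agonist_LW, against 10.7% and 11.9% in pericytes.

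C1q macrophages, tissue macrophages marked by the complement genes C1qa, C1qb and C1qc, were the main source of Ccl8 and Ccl12. Ccl8 stood at 792 CPM (774 to 810) in WT_LW and 3832 (3783 to 3882) in TLR9agonist_LW, a log2 ratio of 2.28 (2.24 to 2.31). Ccl12 stood at 142 (135 to 150) and 602 (583 to 622), a log2 ratio of 2.08 (1.99 to 2.17). Ccl7 (267 and 925) and Ccl2 (401 and 930) were also higher, with log2 ratios of 1.79 (1.73 to 1.86) and 1.21 (1.15 to 1.27). All 4 ligands were thus more than 2-fold higher, as were 3.24% of 9793 genes. At 1500 UMIs per cell, 19.0% (16.5 to 21.6) and 57.6% (53.8 to 61.3) of these macrophages had a Ccl8 UMI, against 3.55% and 8.62% of T cells. Unthinned shares were 31.4% and 75.2% of macrophages and 8.48% and 23.3% of T cells. The median depth of these macrophages was 9145 UMIs in WT_LW and 7821 in TLR9agonist_LW.

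Ccl8 was unevenly spread over C1q macrophages as well. In TLR9agonist_LW, clusters of 242 and 146 cells stood at 6433 and 7203 CPM of Ccl8, and a cluster of 131 cells led by Cd207 and Slpi at 103. In WT_LW, a cluster of 248 cells led by Ccl17 and Saa3 stood at 17.8, and the highest cluster at 1407. Ccl2 was flatter, between 771 and 1252 CPM in the 4 larger TLR9agonist_LW clusters. Thinned macrophages with a Ccl8 UMI had a Ccl12 UMI more often than the rest, in 44.4% against 20.8% of TLR9agonist_LW cells.

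The other myeloid cells held little Ccl8. Monocyte-like cells had 539 and 372 CPM of Ccl2, a log2 ratio of -0.53 (-0.73 to -0.34), or -1.47 with the T cell level subtracted, from 125 and 134 cells. Their Ccl7 (95.2 and 71.9) was 4.14 and 1.03 times the T cell level, and their Ccl8 (20.2 and 51.8) near it in both libraries. Cd209a dendritic cells had 174 and 162 CPM of Ccl2, which was 3.95 times the T cell level in WT_LW and below it in TLR9agonist_LW. Their Ccl2 log2 ratio was -0.10 (-0.29 to 0.09) by the gate but 1.63 when cell types were taken from Leiden clusters, which gave 2.91 in place of 1.21 for Ccl7 and 2.87 in place of 1.67 for Ccl8. Their Ccl8 (8.38 and 26.6) was below the T cell level in both libraries. In Mmp12 macrophages, Langerhans-like, migratory and type 1 dendritic cells and NK-like cells, Ccl7 was between 0.515 and 1.10 times the T cell level and Ccl2 between 0.557 and 1.45 times, and no library held more than 5 UMIs of Ccl12. Ccl8 was below the T cell level in these cells except in WT_LW migratory dendritic cells, which had 26 UMIs of it. The neutrophil gate held 43 WT_LW cells with 1519 CPM of Ccl8. Without the cells that also carried 3 or more C1q macrophage markers, 29 cells remained and the level was 20.7. That condition was tried after the first value had been seen, and neutrophils are not described further.

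**Figure D3:**
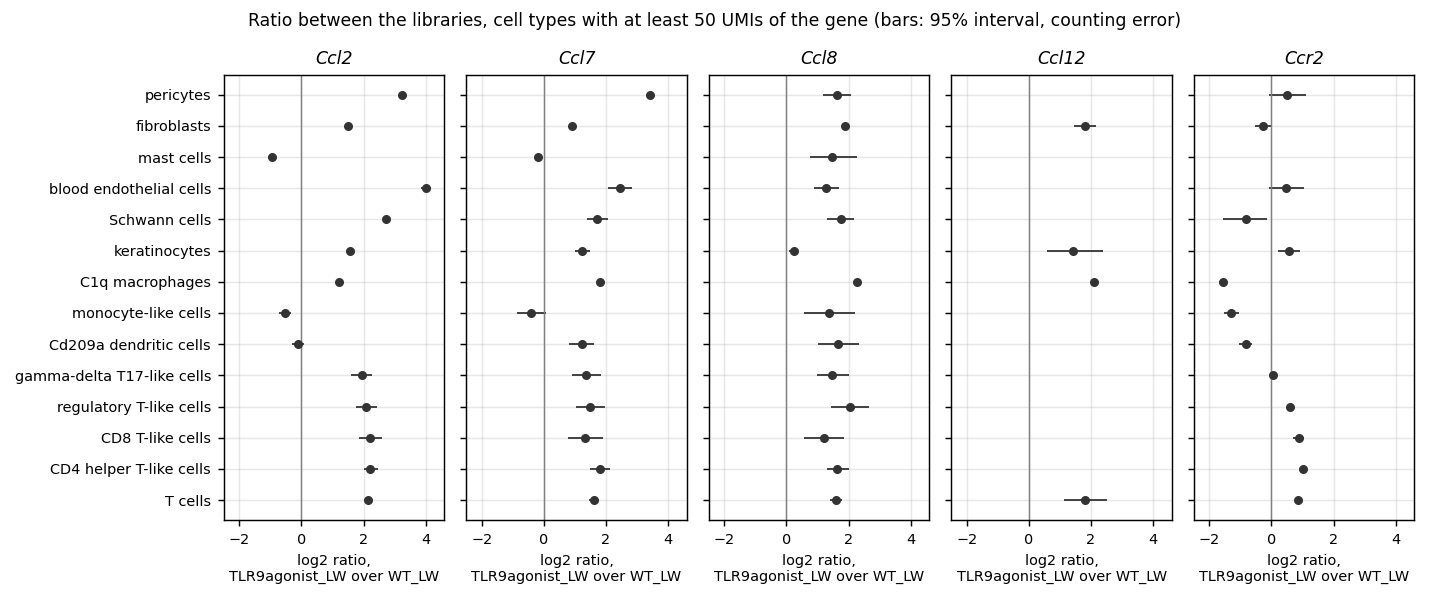
Log2 ratio of levels in CPM, TLR9agonist_LW over WT_LW, of each gene in those of 14 cell types, neutrophils not among them, that held at least 50 of its UMIs, with 95% intervals for counting error and a line at 0. Among them Ccl2 runs from -0.96 in mast cells to 4.01 in blood endothelial cells, and Ccr2 lies below 0 in the C1q macrophages (-1.56) and above 0 in CD4 helper T-like cells (1.02).

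Set side by side, each ligand had the same main source in both libraries. Fibroblasts held 44.3% of the Ccl2 UMIs in WT_LW and 51.7% in TLR9agonist_LW, and pericytes 19.6% and 28.1%. Macrophages and dendritic cells held 16.2% and 4.20% of Ccl2, mast cells 5.76% and 0.854%, and blood endothelial cells 0.897% and 2.45%. Fibroblasts and cells of the blood vessels thus held more of the Ccl2 in TLR9agonist_LW, and macrophages and mast cells less. For Ccl7, fibroblasts held 52.3% and 61.8%, mast cells 16.9% and 6.52%, macrophages and dendritic cells 16.5% and 10.6%, and pericytes 4.72% and 11.6%. Macrophages and dendritic cells held most of Ccl8, 67.1% and 55.7%, and of Ccl12, 84.6% and 79.6%. The fibroblast share of Ccl8 was 16.5% and 34.2%. Cells without a type held 5.92% and 5.68% of Ccl2.

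**Figure D4:**
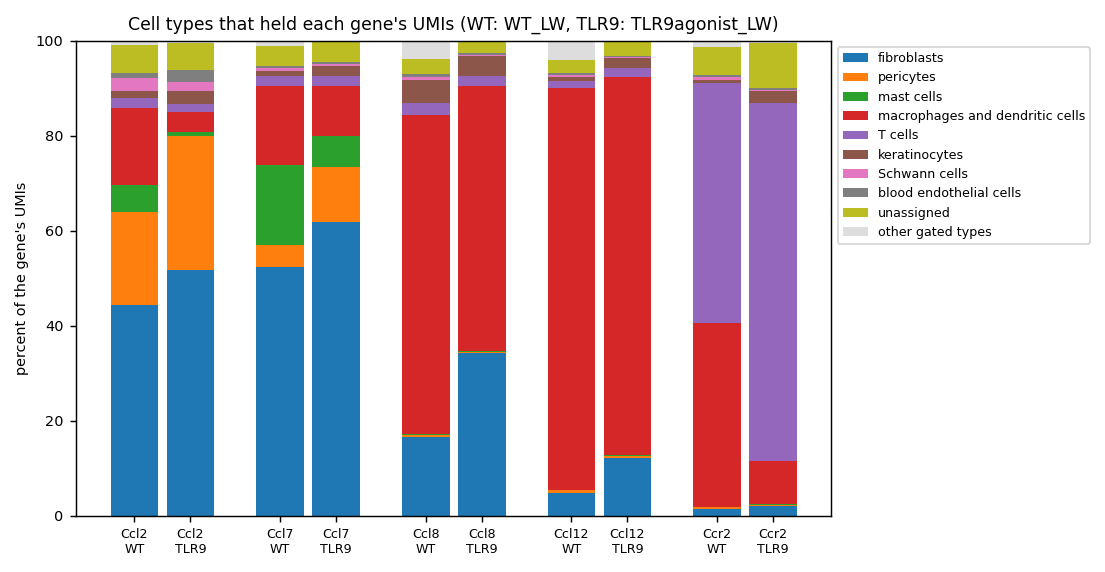
Percent of each gene's UMIs held by each cell type, stacked to 100%, with WT_LW to the left and TLR9agonist_LW to the right in each pair of bars. Fibroblasts and pericytes together make up most of Ccl2, macrophages and dendritic cells make up most of Ccl8 and Ccl12, and T cells hold 50.5% of Ccr2 in WT_LW and 75.5% in TLR9agonist_LW.

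These shares mix levels with the number and depth of cells, which depend on dissociation as well as on the tissue. With the levels of TLR9agonist_LW and the cell type shares of WT_LW, the log2 ratio over all cells was 2.07 for Ccl2, 1.26 for Ccl7, 1.94 for Ccl8 and 1.86 for Ccl12. With the levels of WT_LW and the cell type shares of TLR9agonist_LW, it was 0.10, 0.27, -0.31 and -0.69. The values with levels exchanged were thus the larger for every ligand, and those with shares exchanged were below 0 for Ccl8 and Ccl12. For Ccr2 the same values were 0.31 and -0.53, of opposite sign.

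Ccr2 was held by T cells, NK-like cells and myeloid cells. Its level was higher in TLR9agonist_LW T cells as a whole and lower in TLR9agonist_LW macrophages and dendritic cells as a whole (234 and 94.2). Its level was 10.1 and 8.45 CPM in fibroblasts and 9.65 and 13.8 in pericytes. In C1q macrophages Ccr2 stood at 248 CPM (238 to 258) in WT_LW and 84.2 (77.0 to 91.9) in TLR9agonist_LW, a log2 ratio of -1.56 (-1.70 to -1.42). Of 9793 genes in these cells, 2.99% were at least 2-fold lower. Monocyte-like cells had the highest myeloid level, 520 and 213, with a log2 ratio of -1.29 (-1.53 to -1.05), and 10.6% of 3928 genes were at least 2-fold lower there. Cd209a dendritic cells stood at 224 and 126, a log2 ratio of -0.83 (-1.03 to -0.63), and Mmp12 macrophages at 104 and 37.7 from 76 and 40 cells. Langerhans-like cells (6.89 and 7.15, from 4 and 2 UMIs) and migratory dendritic cells (15.2 and 14.3, from 6 and 11 UMIs) were near the level of fibroblasts and pericytes, and type 1 dendritic cells stood at 62.3 and 59.0 from 29 and 24 UMIs. NK-like cells, 71 and 22 in number, stood at 315 and 389, a log2 ratio of 0.31 (-0.21 to 0.80).

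In T cells as a whole, Ccr2 stood at 352 CPM (344 to 362) in WT_LW and 637 (625 to 649) in TLR9agonist_LW, a log2 ratio of 0.85 (0.81 to 0.90). γδT17-like cells, T cells that make interleukin-17, with Cd163l1 and Blk among their markers, held a high level in both, 824 (780 to 870) and 859 (832 to 887). Their log2 ratio was 0.06 (-0.03 to 0.15), or 0.22 relative to the median gene. Regulatory T-like cells stood at 650 and 991, a log2 ratio of 0.61 (0.51 to 0.71). CD8 T-like cells stood at 250 and 457, a log2 ratio of 0.87 (0.68 to 1.05), and CD4 helper T-like cells at 176 and 357, a log2 ratio of 1.02 (0.91 to 1.13). Of these named subsets only the last passed the 2-fold limit, as did 3.06% of 9067 genes in it. This call turned with the settings, since by Leiden clusters the log2 ratio was 0.91 in CD4 helper and 1.02 in CD8 T-like cells, and with equal weight per cell it was 0.99 in CD4 helper T-like cells. The T cells of no named subset, 1020 and 1033 in number, stood at 286 and 623, a log2 ratio of 1.12 (1.03 to 1.21). Cells without a type stood at 124 and 255, a log2 ratio of 1.04 (0.91 to 1.18). In WT_LW the order of T cell levels was γδT17-like, regulatory, CD8 and CD4 helper, and none of these neighbours had overlapping intervals. In TLR9agonist_LW regulatory T-like cells stood first.

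γδT17-like cells made up 11.4% of T cells in WT_LW and 29.0% in TLR9agonist_LW, and held 11.3% and 26.7% of all Ccr2 UMIs. The TLR9agonist_LW share depended on how these cells were named, and was 15.8% with 1 marker more and 48.9% by Leiden clusters. With subset shares held at those of WT_LW, the log2 ratio of Ccr2 in T cells was 0.75, and with subset levels held it was 0.29. Macrophages and dendritic cells held 38.6% of Ccr2 UMIs in WT_LW and 8.94% in TLR9agonist_LW. At 1500 UMIs per cell, 63.0% (57.8 to 68.0) and 63.9% (60.7 to 67.0) of γδT17-like cells had a Ccr2 UMI, against 2.71% and 0.979% of fibroblasts. Unthinned shares were 86.4% and 87.5%, and 12.3% and 6.07% in fibroblasts, whose median depths of 15045 and 12881 UMIs exceeded the 4147 and 4476 of γδT17-like cells.

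**Figure D5:**
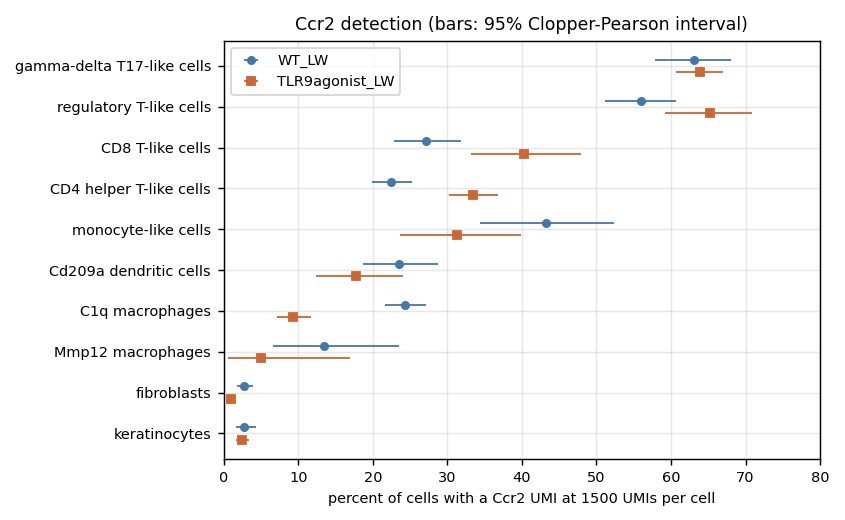
Percent of cells with a Ccr2 UMI after thinning to 1500 UMIs per cell, with circles for WT_LW, squares for TLR9agonist_LW and bars for the 95% Clopper-Pearson interval. C1q macrophages lie at 24.3% and 9.25%, γδT17-like cells near 63% to 64% in both libraries, and fibroblasts and keratinocytes under 3%.

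The genes known to switch Ccl2 on or off were read from a list of 14 inducers and brakes. This list and those below were chosen with earlier results of these data known. Their counts beside the shares of all genes are therefore descriptions only. In pericytes 6 of the 14 were at least 2-fold higher and none was 2-fold lower, where 3.51% and 12.5% of all genes were, with a median log2 ratio of 0.41 against -0.43 over all genes. Cebpb, a transcription factor of inflammatory genes, stood at 789 and 2438 CPM (log2 ratio 1.63). Nfkbia, which encodes an inhibitor of NF-κB that is itself an NF-κB target, stood at 1233 and 3541 (1.52). Tnfaip3 and Zc3h12a, which encode brakes on inflammatory signalling and on inflammatory transcripts, had log2 ratios of 1.14 and 1.12. Blood endothelial cells had 4 of 14 at least 2-fold higher, against 3.96% of all genes, with Nfkbia at 1145 and 4327. Fibroblasts had 3, against 3.89% of all genes, led by Irf1, an interferon response factor, at 91.1 and 283. In C1q macrophages, where all ligands were higher, none of the 14 was 2-fold higher or lower, against 3.24% and 2.99% of all genes, with a median of -0.22 against -0.17. Mast cells had 3 higher, with Nfkb2 and Nfkb1, which encode NF-κB subunits, at log2 ratios of 1.89 and 1.78, and 3 lower, with Fos at 3081 and 461, where 12.4% of all genes were higher and 5.67% lower. Schwann cells had 4 higher and none lower (2.46% and 3.40% of all genes). γδT17-like cells, with ligands near the level of other T cells, had 4 higher and 3 lower (5.18% and 16.4%), and T cells as a whole 3 and 2 (4.57% and 10.9%). Monocyte-like cells had 1 higher and 3 lower (3.36% and 10.6%), and keratinocytes none higher and 1 lower (2.35% and 20.6%).

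Of the upstream receptors, Il17ra, which encodes an interleukin-17 receptor, stood at 44.0 and 83.9 CPM in pericytes and Il1r1, which encodes an interleukin-1 receptor, at 237 and 400. None of the 6 measured in pericytes was 2-fold higher or lower, where 3.51% and 12.5% of all genes were, and their median log2 ratio was -0.28 against -0.43. Mmp3, a protease known to trim the ligands, stood at 39.0 and 170 in fibroblasts, a log2 ratio of 2.12 (2.00 to 2.24). In pericytes it stood at 1.81 and 64.7, the first from few UMIs. Of the 6 listed proteases and proteoglycans measured in fibroblasts, 1 was at least 2-fold higher and none 2-fold lower. There 3.89% and 7.58% of all genes were, and the list median was -0.27 against -0.29. In pericytes 3 of 5 were higher and none lower (3.51% and 12.5% of all genes), with a median of 1.13 against -0.43. Sdc1, a proteoglycan that can hold chemokines, stood at 179 and 435 in pericytes and, in the opposite order, at 83.2 and 49.5 in fibroblasts. Ackr1, an endothelial receptor that binds chemokines without signalling, stood at 187 and 368 in blood endothelial cells.

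Other CC chemokine genes were measured beside the ligands. Ccl11, an eosinophil chemoattractant, stood at 212 and 1359 CPM in pericytes (log2 ratio 2.68), and Ccl9 and Ccl5 had log2 ratios of -0.88 and -0.71 there, against a median of -0.43 over all genes. Of the 6 measured in pericytes, 1 was at least 2-fold higher and none 2-fold lower, against 3.51% and 12.5% of all genes. Of the 11 measured over all cells, 2 were at least 2-fold higher and 6 at least 2-fold lower, against 3.79% and 11.7% of all genes. Their median log2 ratio over all cells was -1.01, against -0.39 for all genes. In mast cells Ccl3 stood at 37.1 and 180 and Ccl1 at 30.7 and 104, the opposite direction to Ccl2, with few UMIs in WT_LW. Of the 4 measured in mast cells, 2 were at least 2-fold higher and none 2-fold lower, against 12.4% and 5.67% of all genes. Ccl4 and Ccl5 stood at 1351 and 338 and at 259 and 59.4 in monocyte-like cells. Of the 5 measured there, none was 2-fold higher and 2 were at least 2-fold lower, against 3.36% and 10.6% of all genes. Among receptors that share ligands with Ccr2, Ccr1 stood at 47.7 and 166 in γδT17-like cells, a log2 ratio of 1.80 (1.46 to 2.16). The Ccr2 log2 ratio in these cells was 0.06, or 0.22 relative to the median gene. In these cells 5.18% of 7548 genes were at least 2-fold higher.

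The genes with the profiles most like each member over the 40 profiles were, after the other member of its pair, 2310022B05Rik and Gadd45g for Ccl2 (r of 0.736 each), Smarca1 and Hs6st2 for Ccl7 (0.804 and 0.733), C1qb and Reps2 for Ccl8 (0.700 and 0.695) and C1qb and Ms4a7 for Ccl12 (0.762 and 0.736). C1qb and Ms4a7 were also markers of the C1q macrophage gate. For Ccr2 they were Emb, Itgal and Rac2 (0.894, 0.872 and 0.858), of which Itgal and Rac2 act in leukocyte adhesion and movement. These were the highest of 11987 genes considered, and the correlations are descriptions.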

How the data were processed

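Single-cell 3′ RNA was measured in 2 libraries of pooled wound cells. Counts of UMIs, not normalized, were deposited by the authors for each gene in every barcode that Cell Ranger called as a cell. The submitters' processing notes also name fastp, Seurat and the build mm9, but 27645 of the 27998 gene identifiers are in GENCODE vM21 (GRCm38), which gave the positions by identifier. Counts per cell were not split by mouse. The results text of the study gives 6 mice per group and its methods give 5 samples, and a figure legend names a control oligonucleotide in place of PBS.

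WT_LW held 12800 cells with 99374045 UMIs and TLR9agonist_LW 13751 cells with 132339022 UMIs. Cells were kept (11443 and 13206) if they held 500 UMIs and 300 genes or more and no more than 15% mitochondrial UMIs. The cells with the highest Scrublet scores, about 0.8% per 1000 cells, were then removed. These were 1088 and 1413 cells, or 9.51% and 10.7% of the cells kept. A marker was on in a cell with at least 1 UMI and a level above the mean of its library. A type needed 3 markers on and 2 more than any other type. NK-like cells needed 2, and related types were not set against each other. These 2 exceptions were made after the first cell counts were seen. Subsets needed 3 markers, or 2 for Langerhans-like, γδT17-like, CD8 and CD4 cells.

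UMIs were summed per type and library and given in CPM with exact Poisson intervals, ratios with the exact interval given the total count, and shares with Clopper-Pearson intervals, all at 95%. UMIs counted in free RNA are part of every level. A gene was past the limit at a log2 ratio of 1 or beyond, with at least 50 UMIs in the type. Clusters were made by the Leiden algorithm within each library, without the 5 genes. Scanpy 1.11.5, scipy 1.17.1, numpy 2.4.6, pandas 2.3.3 and matplotlib 3.10.9 were run under Python 3.11.15. The code for the ratio and its interval was checked on simulated Poisson counts, the error that the interval assumes. The spread among cells or mice was not simulated. The 5 genes were measured in every type, and types near the T cell level or with few UMIs are given by ranges. The text also names up to 4 genes per list and cell type by size of ratio among those with at least 50 UMIs, and the 3 most similar genes of each member. The members and lists were chosen with earlier results of these data known. Genes of T cell receptors are left out. Results were recomputed under 7 other settings and 2 more that were added after seeing the data.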

Additional observations from a re-analysis of the deposited data

Results flagged for a closer look

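Among named cell types with at least 50 cells in each library, Ccl2, Ccl7 and Ccr2 had log2 ratios of opposite sign, each with an interval for counting error on 1 side of 0. With 1 library per group, none of these differences was tested. Ccl2 was lower in TLR9agonist_LW mast cells (-0.96) and monocyte-like cells (-0.53), and its highest ratio was in blood endothelial cells (4.01). Ccl7 was lower in mast cells (-0.20), although the share of thinned mast cells with a Ccl7 UMI went the opposite way. Its highest ratio was in pericytes (3.41). Ccr2 was lower in C1q macrophages (-1.56), macrophages and dendritic cells as a whole (-1.31), monocyte-like cells (-1.29) and Cd209a dendritic cells (-0.83), and had its highest ratio among these types in CD4 helper T-like cells (1.02), which by Leiden clusters was 0.91. It was also lower in Schwann cells (-0.83), where 73 and 23 UMIs gave levels near those of fibroblasts. In types with fewer cells, Ccl8 was lower in migratory dendritic cells (-0.96, from 52 UMIs) and in the mixed neutrophil gate (-4.23).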

How the results depend on the processing

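No paired analysis was possible because each group has 1 library. Over all cells, each ligand stayed higher in TLR9agonist_LW in every alternative. With equal weight per cell the log2 ratios were 2.07 for Ccl2, 1.52 for Ccl7, 1.82 for Ccl8 and 1.42 for Ccl12, relative to the median gene 2.31, 1.69, 1.88 and 1.51, and without the 1% of cells with most UMIs of the gene 2.23, 1.78, 2.42 and 1.72. Ccr2 was -0.15 with doublets kept, and turned to 0.22 with equal weight per cell and 0.29 relative to the median gene. Of 606 recomputed ratios, 442 stayed within the interval, 152 left it in the same direction or from an undecided value, and 12 reversed. Besides the 2 of Ccr2, these were Ccl8 in keratinocytes with the T cell level subtracted (-3.75), Ccr2 in Schwann cells with doublets kept (0.66) and by Leiden clusters (0.02), Ccl8 in migratory dendritic cells by Leiden clusters (0.09) and without the top 1% of cells (0.31), and the neutrophil values, which were for Ccl2 0.75 with 1 marker more, 1.59 by Leiden clusters and 0.50 without cells with 3 C1q markers, and by Leiden clusters 1.47 for Ccl7 and 1.19 for Ccl8. The causes of these changes were not tested. The T cell subtraction and the C1q condition were added after seeing the data. In pericytes Ccl2 ranged from 3.19 to 3.61, in mast cells from -1.19 to -0.79, in monocyte-like cells from -1.47 to -0.35, and in blood endothelial cells from 3.43 to 5.35. Naming cells by Leiden clusters put 48.9% of TLR9agonist_LW Ccr2 UMIs in γδT17-like cells, and a gate with 1 marker more put 15.8% there. Outside macrophages, fibroblasts, keratinocytes, T cells and cells without a type, Ccl12 rests on fewer than 50 UMIs over both libraries, or on the mixed neutrophil gate, and depth limits those values.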
